A study of Homo sapiens with 6 samples.

Results

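The genes described here are 10 components of the machinery by which a cell detects misplaced DNA and RNA, in WM164, a human melanoma cell line with a BRAF V600E mutation. They were picked out of the 60504 rows of the deposited expression table by gene symbol, and all 10 symbols were found. The 10 symbols were chosen by measured values, the EV and HDAC8 levels in these same libraries having been in view, so their levels and differences are given as a description and without a p-value. The comparison was between 3 libraries from cells that carried an empty expression vector (EV) and 3 from cells that carried an HDAC8 expression vector. HDAC8 is a class I histone deacetylase. The question here is which transcripts of nucleic acid sensing differ between cells with the 2 vectors. Cells of both groups were transfected with plasmid and kept under hygromycin, and whether a line came from 1 clone is not given in the sources used here. Nothing in the labels says that the replicates came from separate transfections, so p-values measure the spread between these libraries only.

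Cells sense foreign or displaced nucleic acid with receptors in the cytosol and in endosomes. cGAS, the product of CGAS, binds DNA in the cytosol and makes the second messenger cGAMP, which activates STING. The RNA helicase MDA5, encoded by IFIH1, signals through MAVS on mitochondria, and TLR3 recognises double-stranded RNA in endosomes. All these routes meet at the kinase TBK1, which phosphorylates the transcription factor IRF3, which in turn switches on type I interferon. TREX1 degrades cytosolic DNA and ENPP1 hydrolyses cGAMP, so both limit the response. Tumour cells, melanoma among them, are known to silence parts of this pathway.

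Total counts ran from 34741083 to 42041462 per library and overlapped between the groups. The HDAC8 transcript did not check the labels: its normalized counts were 384, 404 and 479 with EV and 485, 446 and 474 with the HDAC8 label. Its log2 fold change was 0.15 with a 95% interval from -0.41 to 0.70. Every direction below therefore rests on the labels, and HDAC8 stands for the 3 libraries that carry that label. HDAC8 1 stood apart from its replicates: the chi-square per degree of freedom between libraries was 167.6 and 112 for its pairs with HDAC8 2 and HDAC8 3, 27.6 between those and 42 to 51.6 within EV. Without it 3 of the 10 genes were still called lower and 0 higher. That fit called 1378 genes lower and 1107 higher in all, of 20737 with an adjusted p. Mitochondrially encoded transcripts took 9.66% to 12.83% of the counts in EV and 4.46% to 7.94% in HDAC8, lowest in HDAC8 1. Melanocyte markers were present in both groups. Their summed level was 6597 to 8340 CPM (counts scaled to a library total of 1000000) in EV and 3545 to 5067 in HDAC8. Of the 6 markers, 4 were called lower, against 5.44% of all genes with an adjusted p. MITF and SOX10 were not called, with log2 fold changes of -0.20 and -0.33. In 5 of the 6 the HDAC8 libraries lay below EV without overlap, and 24% of all genes fitted had no overlap in either direction. Of 17 immune cell markers, 5 had no count in any library and the leukocyte marker PTPRC had at most 3. LYZ, CORO1A, LAPTM5, CSF1R and FCER1G had counts in every library, with lowest counts of 56, 57, 19, 14 and 12. The 17 markers had summed levels of 13.3 to 17.7 CPM in EV and 10.6 to 12.9 in HDAC8. Of the 7 immune markers with an adjusted p, CD3E was called higher and FCER1G lower in the HDAC8 libraries. Over all genes these shares were 5.57% and 5.44%. The part of these shifts in the results below was not tested. In bulk RNA, fewer cells that express a gene and less transcript per cell cannot be told apart.

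The plainest result was in CGAS. Its transcript was present in all 3 EV libraries and had no read in any library labelled HDAC8. TLR3 was 5.39-fold lower, and the DNA sensor IFI16 was 1.75-fold lower from a far higher level. The RNA sensor IFIH1 stayed under the thresholds, as did MAVS, TBK1, IRF3, TREX1 and ENPP1, which carry or limit the signal. Among these, the groups did not overlap for ENPP1, which was lower in HDAC8, and for IRF3, which was higher. AIM2 had no read anywhere.

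**Figure D1:**
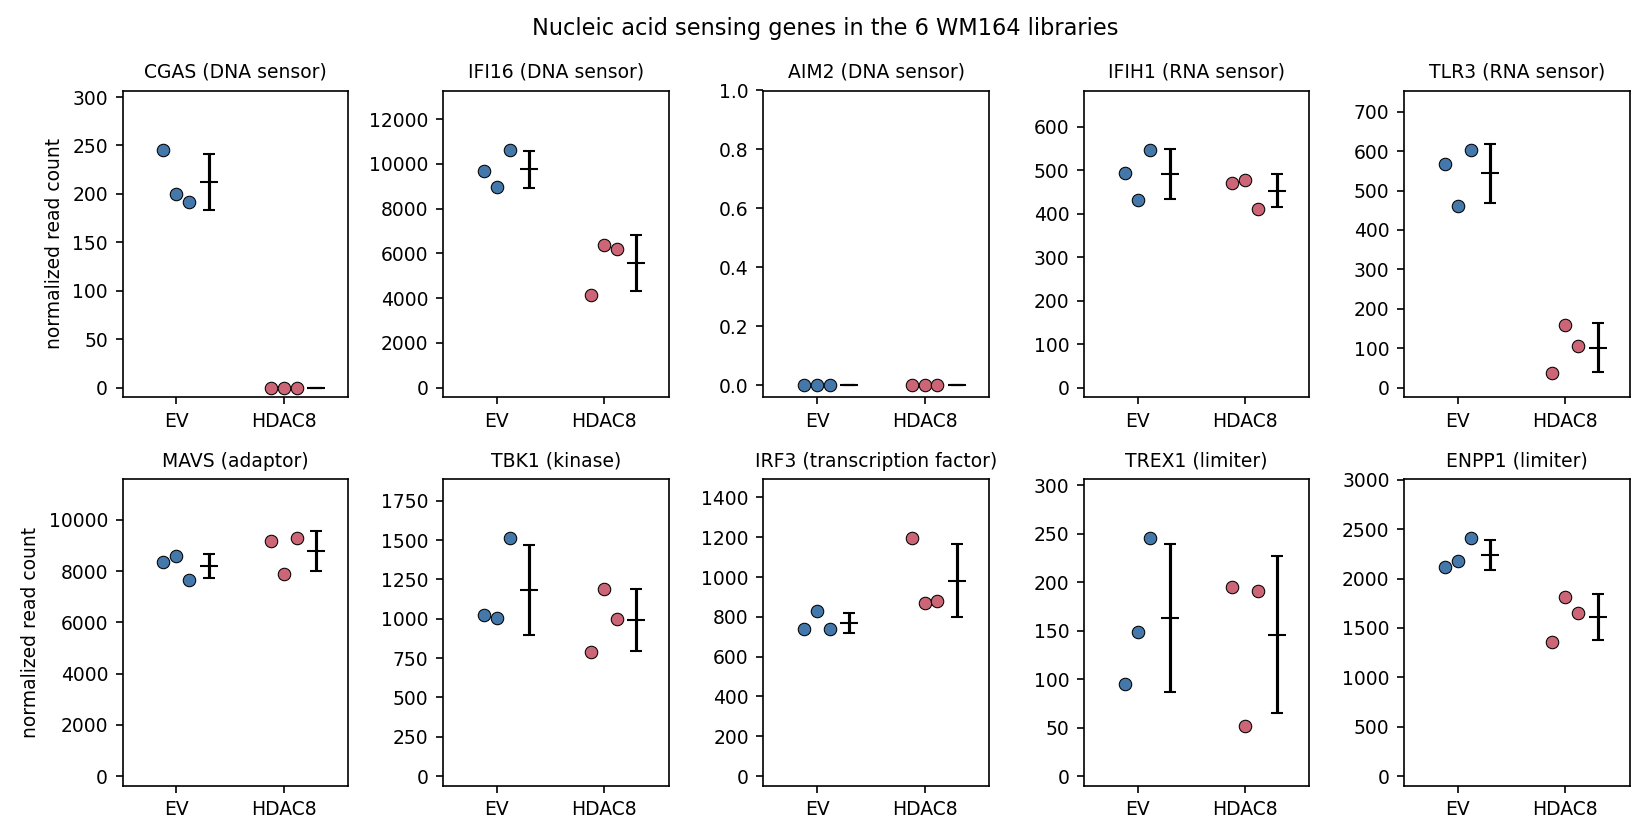
Normalized read counts (vertical axes, linear, a different scale in each panel) of the 10 genes in the 3 EV (blue) and 3 HDAC8 (red) libraries. Points are libraries, and the bar beside them is the mean with its SD (n = 3). CGAS sits at 0 in all HDAC8 libraries, TLR3 and IFI16 lie below every EV library, and AIM2 is at 0 throughout.

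Of the 9 genes with enough reads to be fitted, 3 were called lower and 0 higher by DESeq2 (Benjamini-Hochberg adjusted p under 0.05, fold change on the log2 scale 0.58 or more either way). Over all genes with an adjusted p, 5.44% were called lower, 5.57% higher and 11% in either direction. The median log2 fold change was -0.25 over the 9 genes and -0.0001 over all 26162 genes fitted. In 5 of the 9 genes the groups did not overlap, against 24% of the genes fitted. Since the list was drawn up with this contrast known, nothing is read from these counts.

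The DNA sensors come first. CGAS (ENSG00000164430) lies on chromosome 6, 73413515 to 73452297, on the minus strand of GRCh38. Its deposited counts were 234, 214 and 194 in EV and 0, 0 and 0 in HDAC8. As normalized counts, which are scaled for depth by the size factors of DESeq2, the EV libraries had 245, 199.9 and 191, with a mean of 212 ± 29.1 (SD, n = 3). A count of 0 in a library still allows up to 3 reads, and against that floor CGAS was at least 71.5-fold lower. The fitted fold change is no bound when 1 group has no reads, and it is not given.

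A loss of all reads from such a level was uncommon in the table. Of the 26162 genes fitted, 11065 had an EV mean at least as high as that of CGAS, and 8 of these, CGAS included, had no count in any HDAC8 library. Among these 8 genes, 5 are protein-coding: NELL1, MCTP2, HIST2H2AA3, SELENBP1 and CGAS. HIST2H2AA3 is a histone gene with a near-identical copy, so its reads can be assigned to either. With a lower bar, an EV mean of at least 50, 34 genes had no count in any HDAC8 library, and 16 genes showed the mirror image, with no count in EV and an HDAC8 mean of at least 50. The first bar was set by CGAS itself, a gene listed with these values in view, so these counts are a description.

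The genes most like CGAS over the 6 libraries, by Pearson correlation of log2(normalized count + 1) among 14451 genes with a mean of at least 50, shared this on and off pattern. They were OR7E12P (r = 0.9998), TSSC2 (r = 0.9997), AF254983.1 (r = 0.9995), NELL1 (r = 0.9993) and TPTE (r = 0.999). All 5 were at 0 in every HDAC8 library, with EV means of 143, 360, 184, 1989 and 115 normalized counts. OR7E12P and TSSC2 lie about 10 kb apart on chromosome 11, and AF254983.1 and TPTE overlap on chromosome 21. With 6 libraries in 2 groups, such a correlation mostly restates the difference between the groups.

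Most genes around CGAS on the chromosome kept their reads. The 10 neighbours taken were the 5 nearest on each side with a mean of at least 10 normalized counts, up to 329.1 kb away. Of these, 1 was called lower and 0 higher. That gene, RPSAP41, is a processed pseudogene with a mean of 20.7 in EV and no count in HDAC8. MTO1, 52.5 kb from CGAS on the other side, had 1119 ± 104 normalized counts in EV and 1088 ± 207 in HDAC8. EEF1A1, which encodes a translation elongation factor and lies 74.5 kb away, had 198225 ± 8211 and 187138 ± 15654 (SD, n = 3), with a log2 fold change of -0.08. The median log2 fold change over the 10 neighbours was 0.34. This window was chosen after the values were seen, and copy number was not measured in these files.

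**Figure D2:**
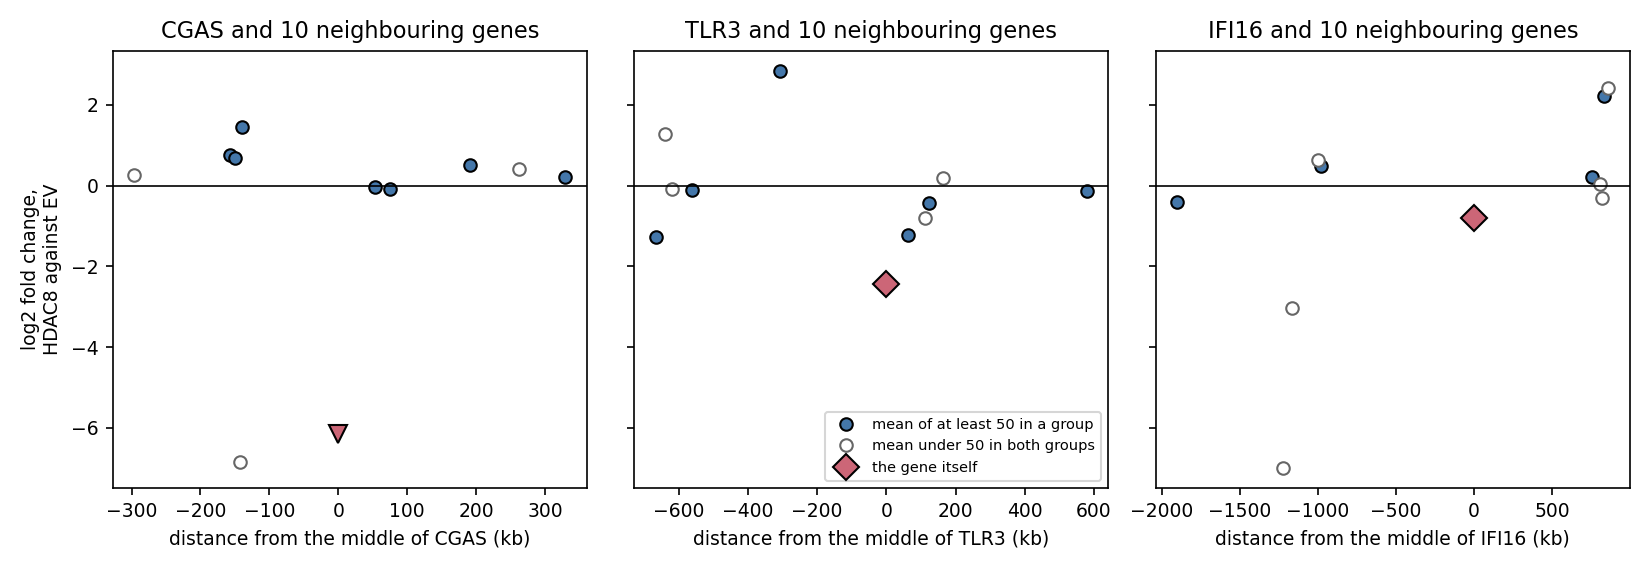
Log2 fold change of HDAC8 against EV (vertical axis) for CGAS, TLR3 and IFI16 and the 10 nearest genes of each with a mean of at least 10 normalized counts, by distance in kb between the middles of the genes (horizontal axis). Blue points have a group mean of at least 50 normalized counts, open points are lower, and the red symbol is the gene itself, a bound against the floor of 3 counts for CGAS. MTO1 and EEF1A1, 52.5 and 74.5 kb from CGAS, lie close to 0.

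IFI16 (ENSG00000163565, chromosome 1, 158999968 to 159055155, plus strand) encodes a DNA-binding protein of the PYHIN family that acts in the nucleus and the cytosol. Its normalized counts were 9662, 8981 and 10621 in EV and 4140.3, 6360.0 and 6193 in HDAC8. Every HDAC8 library lay below every EV library, and HDAC8 1 was the lowest. The means were 9754 ± 824 and 5564 ± 1236 (SD, n = 3), a 1.75-fold lower level with a log2 fold change of -0.81 (95% interval -1.15 to -0.47). Without HDAC8 replicate 1 the log2 fold change was -0.64, and the gene was still past both thresholds.

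IFI16 sits in a cluster with 3 other PYHIN genes on chromosome 1, and these had no reads. AIM2 (ENSG00000163568, 159061599 to 159187843, minus strand), which assembles an inflammasome on DNA, had 0 counts in all 6 libraries. A count of 0 allows up to 0.0864 CPM in the shallowest library and 0.0714 in the deepest, a limit that covers counting error only. MNDA and PYHIN1 of the same cluster were also at 0 in every library. Thus IFI16 was the PYHIN gene with reads in these cells. The 10 genes nearest to IFI16 with a mean of at least 10 reached out to 1897.7 kb and had a median log2 fold change of 0.13. FCRL1, 1 of them, was called lower, from 23.1 normalized counts to 0.

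Of the RNA sensors, TLR3 was called lower and IFIH1 was not called. TLR3 (ENSG00000164342, chromosome 4, 186068911 to 186088073, plus strand) had 566, 460.4 and 603 normalized counts in EV and 36.8, 159.8 and 107 in HDAC8. All HDAC8 libraries were far below EV, and they spread over a 4.35-fold range among themselves, against 1.31-fold in EV. The means were 543 ± 74.0 and 101 ± 61.7 (SD, n = 3). TLR3 was thus 5.39-fold lower, with a log2 fold change of -2.43 (95% interval -3.33 to -1.53) that ran from -2.92 without HDAC8 replicate 2 to -2.03 without HDAC8 replicate 1. In all, 19 of the 26162 genes, TLR3 included, combined an EV mean as high with an HDAC8 mean as low. These limits are the means of TLR3 itself, a gene listed with them in view, so this count is a description. Of the 10 neighbours of TLR3, SORBS2 was called higher (log2 fold change 2.85) and UFSP2 lower (-1.29). FAM149A, 61.4 kb away, had -1.23 and CYP4V2, 124 kb away, had -0.44, neither of them called.

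IFIH1 (ENSG00000115267, chromosome 2, 162267074 to 162318684, minus strand) had 493, 432 and 547 normalized counts in EV and 471, 478 and 411 in HDAC8. The groups overlapped. Its log2 fold change was -0.11 with a 95% interval from -0.66 to 0.43.

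The shared signalling genes were read next. MAVS (ENSG00000088888, chromosome 20, 3846799 to 3876123, plus strand) had 8359, 8589 and 7666 normalized counts in EV and 9168, 7888 and 9276 in HDAC8. The groups overlapped, and the log2 fold change was 0.10 with the narrowest interval of the 9 genes, from -0.17 to 0.36. TBK1 (ENSG00000183735, chromosome 12, 64452090 to 64502114, plus strand) had 1027, 1003 and 1510.2 in EV and 790.1, 1186 and 996 in HDAC8. EV replicate 3 stood above the other libraries, the groups overlapped, and the log2 fold change was -0.25 (95% interval -0.74 to 0.24).

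IRF3 (ENSG00000126456, chromosome 19, 49659569 to 49665875, minus strand) had 737, 827 and 741 normalized counts in EV and 1194, 869.5 and 879.9 in HDAC8. All HDAC8 libraries were above EV, with HDAC8 1 well above the others. The log2 fold change was 0.35 (95% interval -0.11 to 0.81), which was not called, and it was 0.185 without HDAC8 replicate 1. IRF3 shares 19.35% of its exon bases with BCL2L12 on the opposite strand, and its deposited values were not whole numbers, so some of its reads were divided between genes.

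The 2 genes that limit the response were TREX1 and ENPP1. ENPP1 (ENSG00000197594, chromosome 6, 131808016 to 131895155, plus strand) had 2119, 2175 and 2406 normalized counts in EV and 1359, 1817 and 1653 in HDAC8. The groups did not overlap, and its means were 2233 ± 152 and 1609.5 ± 232 (SD, n = 3). The log2 fold change of -0.47 (95% interval -0.83 to -0.11) was under the minimum of 0.58. ENPP1 was also not past the threshold on the adjusted p, and it was not called.

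TREX1 (ENSG00000213689, chromosome 3, 48465811 to 48467645, plus strand) had 95.4, 148 and 245 normalized counts in EV and 195, 52.2 and 191 in HDAC8. The libraries of each group disagreed more than the groups did, with a coefficient of variation of 46.6% in EV and 55.6% in HDAC8. The log2 fold change of -0.16 had an interval from -1.33 to 1.01 and turned positive without EV replicate 3 (0.252) or HDAC8 replicate 2 (0.246). All 1448 exon bases of TREX1 lie within exons of ATRIP, a DNA damage gene on the same strand, and none of its 6 deposited values was whole. ATRIP had 336, 301 and 354 normalized counts in EV and 214, 448 and 250.5 in HDAC8. It was high in HDAC8 2, where TREX1 was lowest. Summed over both genes, a sum formed after the values were seen, the libraries held 431, 449 and 599 in EV and 409, 499.8 and 441 in HDAC8. This sum spread 1.22-fold among the HDAC8 libraries, against 3.73-fold for TREX1 and 2.09-fold for ATRIP alone. In EV it spread 1.39-fold, against 2.57-fold for TREX1 and 1.18-fold for ATRIP. There EV 3 was the highest EV library for both genes, so the opposite course in HDAC8 2 was not seen in EV. How reads were divided between the 2 genes was not tested.

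**Figure D3:**
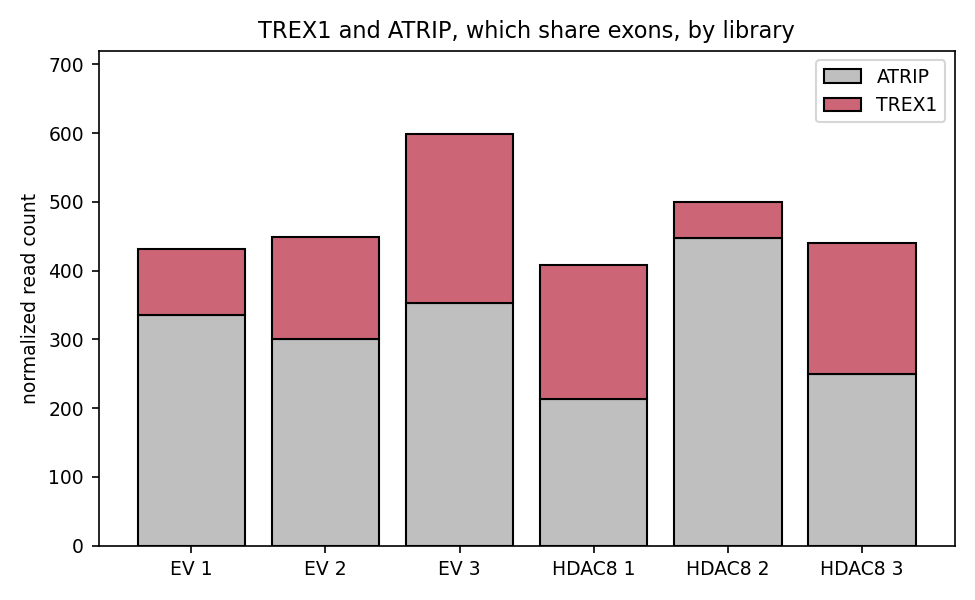
Normalized read counts (vertical axis, from 0) of ATRIP (grey) and TREX1 (red) stacked for each of the 6 libraries. HDAC8 2 has the least TREX1 (52.2) and the most ATRIP (448), while the summed height runs from 409 to 599.

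**Figure D4:**
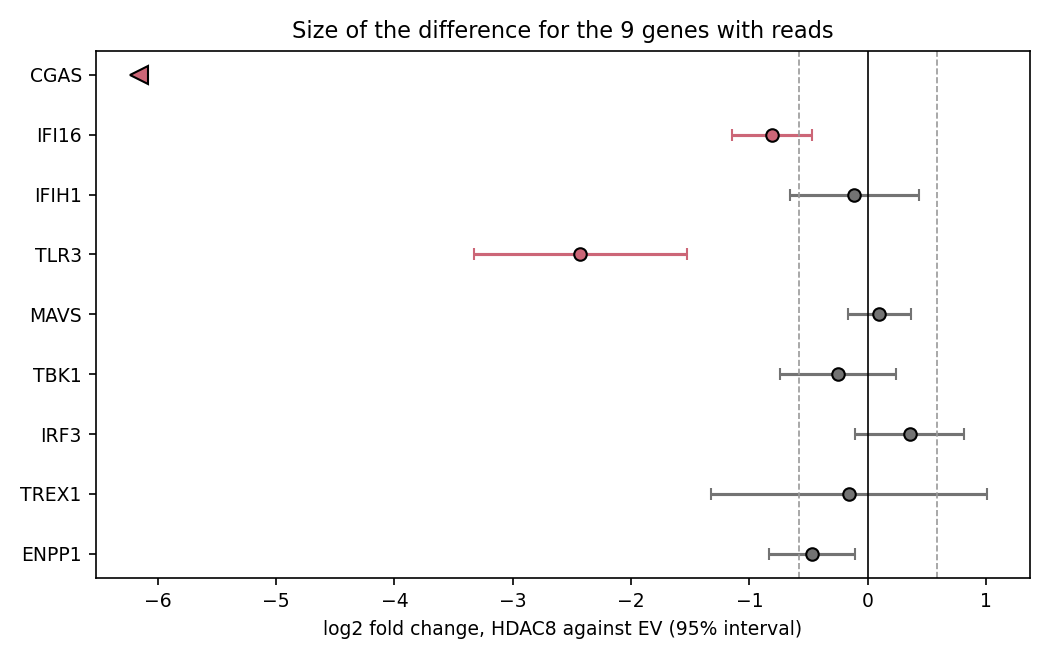
Log2 fold change of HDAC8 against EV for the 9 genes with reads, with the 95% interval from the standard error of DESeq2 (n = 3 libraries in each group). Red marks genes past both thresholds, dashed lines are at 0.58 in either direction, and the triangle for CGAS is the bound against a floor of 3 counts, so the true value lies at it or further left. TLR3 and IFI16 lie wholly below 0, and the interval of TREX1 is the widest drawn.

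To compare levels between genes, counts were divided by exon length and scaled to 1000000 over all genes in each library (the TPM scale). The length was that of all annotated exons of a gene joined, so the order depends on the annotation too. TBK1, at 14716 bases, ranks below IFIH1, at 5225, although its EV mean was 1180 normalized counts against 491. The reads of TREX1 were divided with ATRIP, as given above. In EV the order was IFI16 (151 ± 17.4), MAVS (57.4 ± 7.11), IRF3 (16.6 ± 1.32), ENPP1 (16.0 ± 1.06), TREX1 (9.05 ± 3.69), IFIH1 (7.73 ± 1.13), TBK1 (6.55 ± 1.33), TLR3 (5.97 ± 1.07), CGAS (4.22 ± 0.994) and AIM2 at 0 (SD, n = 3). IRF3 and ENPP1 did not differ beyond their spread, nor did neighbours in the run from TREX1 to TLR3. CGAS had the lowest mean level of the genes with reads in EV and lay below TLR3 in each EV library, although their ranges over the libraries overlapped (3.55 to 5.36 for CGAS, 4.79 to 6.89 for TLR3). In HDAC8, IFI16 (103 ± 21.2) and MAVS (73.3 ± 8.51) still led, followed by IRF3 (25.4 ± 5.34), ENPP1 (13.8 ± 1.65), TREX1 (9.999 ± 5.70), IFIH1 (8.51 ± 0.632), TBK1 (6.58 ± 1.13) and TLR3 (1.31 ± 0.769), with CGAS and AIM2 at 0.

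Promoter sequences show what stands before these genes. RefSeq (GRCh38.p14) gave a window for 8 of the 10 genes, all but CGAS and IRF3. Windows of 250 bases before the start were searched on both strands for GAAANNGAA, the core of the interferon-stimulated response element, for the AP-1 site TGANTCA, and for CACGTG, the E-box that MITF family proteins can bind. Of all 27305 promoters, 7.06% held the first, 6.6% the second and 6.49% the third. The windows of TLR3 and IFI16, the called sensors with a sequence, are shown with that of IFIH1 and with that of BST2, an interferon-induced gene described below. The window of IFI16 lies wholly inside the span given above for that gene, and the window of TLR3 lies inside its gene's span but for the first few bases, since the RefSeq starts are further downstream. Each reads 5′ to 3′ on the gene's own strand, and capitals mark matches to any of these motifs.
TLR3, chr4:186068906-186069155, plus strand: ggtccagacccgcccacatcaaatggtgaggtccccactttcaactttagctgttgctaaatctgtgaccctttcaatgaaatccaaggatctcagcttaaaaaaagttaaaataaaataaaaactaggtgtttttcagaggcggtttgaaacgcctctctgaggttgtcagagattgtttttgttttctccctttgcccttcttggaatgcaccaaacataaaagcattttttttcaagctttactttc
IFI16, chr1:159008741-159008990, plus strand: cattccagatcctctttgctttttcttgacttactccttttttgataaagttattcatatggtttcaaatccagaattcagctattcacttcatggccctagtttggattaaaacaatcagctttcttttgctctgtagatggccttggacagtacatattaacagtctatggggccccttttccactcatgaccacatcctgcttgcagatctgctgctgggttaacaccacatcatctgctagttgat
IFIH1, chr2:162318685-162318934, minus strand: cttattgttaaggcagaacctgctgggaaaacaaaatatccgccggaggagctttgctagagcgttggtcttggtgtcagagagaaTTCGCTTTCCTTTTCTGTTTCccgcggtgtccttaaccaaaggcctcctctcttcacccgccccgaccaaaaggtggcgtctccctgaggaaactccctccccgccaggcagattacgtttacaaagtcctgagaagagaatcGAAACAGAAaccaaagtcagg
BST2, chr19:17405631-17405880, minus strand: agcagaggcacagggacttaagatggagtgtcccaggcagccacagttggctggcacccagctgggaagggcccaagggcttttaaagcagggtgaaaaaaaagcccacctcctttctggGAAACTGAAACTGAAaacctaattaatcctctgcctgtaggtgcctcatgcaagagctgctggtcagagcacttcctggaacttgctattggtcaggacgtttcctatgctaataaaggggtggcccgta

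The windows of TLR3 and IFI16 held none of the 3 motifs. IFIH1, which was not called, held 4 overlapping or separate matches to the interferon core, and BST2 held 2 that overlap. The TLR3 and IFI16 windows were also poor in G and C, at 39.2% and 40.4% against a median of 58.0% over all promoters. Of the other genes of the list, AIM2 had 1 interferon core and 1 AP-1 match and TBK1 had 1 E-box, 31 bases before its start. A match is a string of letters in the window and no measure of binding.

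The rest of the pathway was read from 8 lists of 141 genes in all, without the 10 genes above. These lists too were drawn up with results of these libraries known, so their calls are not independent evidence of a direction. Of these 141 genes, 121 were fitted and 113 had an adjusted p, and DESeq2 called 4 higher and 14 lower in the HDAC8 libraries. Over all genes with an adjusted p, 5.57% were called higher and 5.44% lower. These shares are also the background for the counts of each list below. Without HDAC8 replicate 1 the calls among the 141 genes were 4 higher and 15 lower. Over all 20737 genes with an adjusted p in that fit, 1107 were called higher and 1378 lower. With all libraries, the median change over the 121 fitted genes was -0.09, against -0.0001 over all genes fitted. The genes that were not called and are named below, other than STING, RIG-I, IKBKE, IRF7 and IFNB1, were picked after their values were seen. All 18 called genes had a mean of at least 50 normalized counts and groups that did not overlap. Of the 121 fitted genes, 29.8% had groups that did not overlap, against 24% of all genes fitted.

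**Figure D5:**
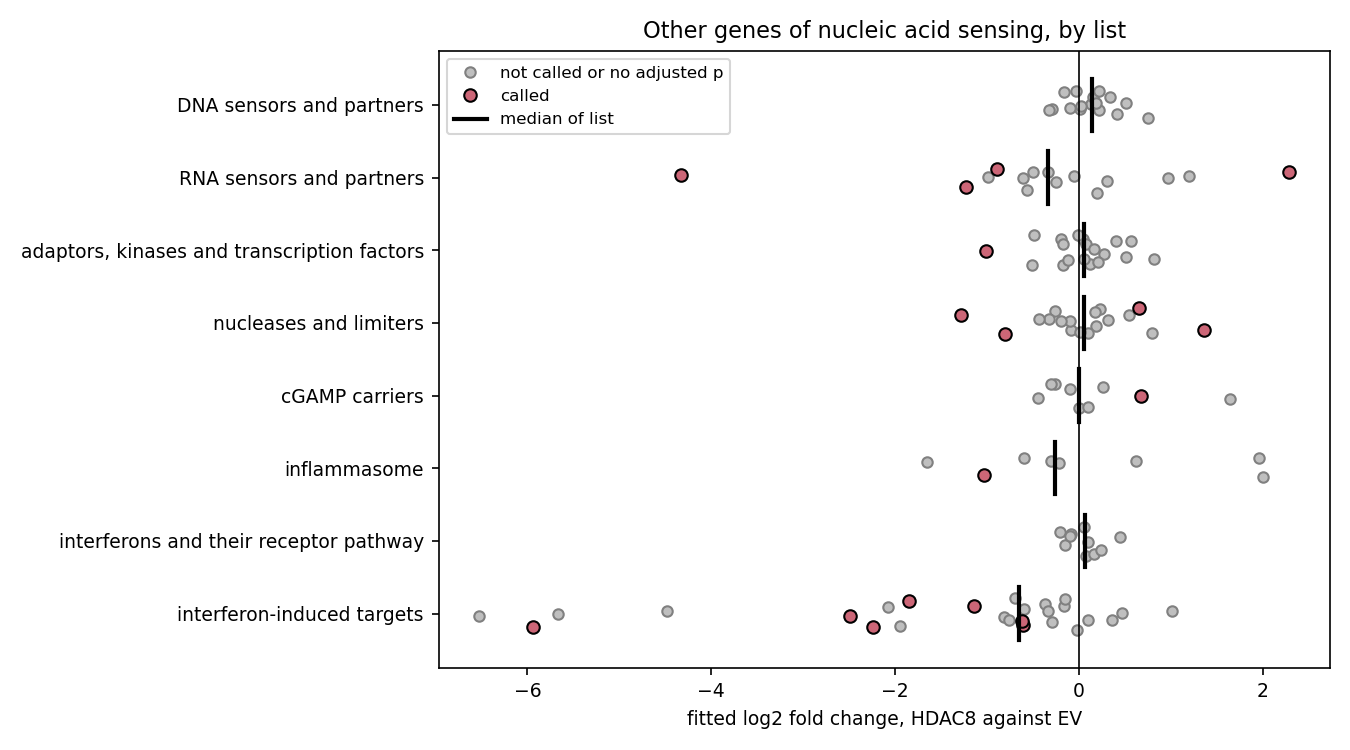
Fitted log2 fold change of HDAC8 against EV (horizontal axis) for the 121 fitted genes of 8 lists of nucleic acid sensing. Red points are called genes, grey points are not called or have no adjusted p, and the black bar is the median of a list. The 7 called genes of the last list lie left of 0, BST2 farthest at -5.94, and the grey points near it are genes with few reads.

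DNA sensors and their partners other than those above did not pass. Of 16 genes with an adjusted p, 0 were called (median 0.14). PRKDC, the catalytic subunit of DNA-dependent protein kinase, had a log2 fold change of 0.51 (DESeq2 adjusted p = 1.55e-04), which is under the minimum of 0.58. STING itself, listed as TMEM173, had 689, 854 and 611 normalized counts in EV and 958, 704 and 854 in HDAC8, and differed by 0.22 on the log2 scale (SE 0.25, DESeq2 adjusted p = 0.699). The receptor of cGAMP was thus present in the libraries without CGAS reads. Its groups overlapped.

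Among RNA sensors and their partners, 3 of 13 genes were called lower and 1 higher (median over 15 fitted genes -0.33). DHX58, which encodes LGP2, the helicase partner of MDA5, had 132, 218.5 and 108 normalized counts in EV and 17.1, 0 and 5.4 in HDAC8, a change of -4.32 on the log2 scale (SE 0.89, DESeq2 adjusted p = 3.75e-05). It was -5.84 without HDAC8 replicate 1 and -3.74 without HDAC8 replicate 2. OAS3, which makes the activator of RNase L, fell from 2970 ± 283 to 1264 ± 40.0 (SD, n = 3), or by -1.23 on the log2 scale (SE 0.17, DESeq2 adjusted p = 2.08e-11). TRIM25, a ubiquitin ligase of the RIG-I route, fell by 0.89 on the log2 scale (DESeq2 adjusted p = 3.67e-07). NLRP1, an inflammasome sensor, rose from 65.0, 73.8 and 109 to 518, 310.3 and 385.5 normalized counts, a change of 2.29 on the log2 scale (SE 0.41, DESeq2 adjusted p = 1.32e-06). RIG-I, listed as DDX58, was not called (log2 fold change -0.33, SE 0.39). OAS1, with groups that did not overlap, had -0.99 (DESeq2 adjusted p = 0.1).

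Adaptors, kinases and transcription factors were mostly under the thresholds, with 1 of 19 called lower and 0 higher (median 0.06). That gene was OPTN, an autophagy receptor that binds TBK1, which fell from 756 ± 64.8 to 376 ± 35.8 normalized counts (log2 fold change -1.01, SE 0.26, DESeq2 adjusted p = 0.00166). IKBKE, the kinase most like TBK1, had -0.17 (SE 0.45) and IRF7 had -0.19 (SE 0.45), and neither was called.

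Nucleases and other limiters went both ways, with 2 of 17 called lower and 2 higher (median over 18 fitted genes 0.06). SAMHD1, which depletes deoxynucleotides, fell by 0.81 on the log2 scale (DESeq2 adjusted p = 0.00427), a call lost without EV replicate 3 (DESeq2 adjusted p = 0.0749) or HDAC8 replicate 3 (0.0558). NLRC5, a regulator of MHC class I genes, fell by 1.28 (DESeq2 adjusted p = 0.00298). CYLD, a deubiquitinase that restrains NF-κB signalling, rose from 695 ± 111 to 1793 ± 160.5 normalized counts (log2 fold change 1.37, SE 0.21, DESeq2 adjusted p = 5.51e-09). SKIV2L, an RNA exosome helicase, had a log2 fold change of 0.66 (DESeq2 adjusted p = 0.0355), and it was not called without EV replicate 1 (0.231), EV replicate 3 (0.183) or HDAC8 replicate 1 (0.168).

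Of the cGAMP carriers, 1 of 8 was called higher and 0 lower (median over 9 fitted genes 0.01). P2RX7, an ATP-gated channel, rose by 0.68 on the log2 scale (SE 0.15, DESeq2 adjusted p = 1.30e-04). Of the inflammasome genes, 1 of 7 was called lower and 0 higher (median over 8 fitted genes -0.26). CASP4, the sensor of cytosolic lipopolysaccharide, fell by 1.04 on the log2 scale (DESeq2 adjusted p = 0.00195). CASP1, NLRP3, CASP5 and CARD16 had no count in any library.

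Interferons and their receptor pathway showed no call in 10 genes (median 0.07). IFNB1, which encodes interferon beta, and IFNL1, IFNL2 and IFNL3 had no count in any library of either group. STAT2, a transcription factor of the interferon response, had a log2 fold change of 0.24 (SE 0.15).

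Of the interferon-induced targets, 7 of 23 were called lower and 0 higher, and their median was -0.65 over 26 fitted genes. BST2, which encodes the antiviral protein tetherin, had 905, 1162 and 892 normalized counts in EV and 0, 8.2 and 40.3 in HDAC8, a change of -5.94 on the log2 scale (SE 1.49, DESeq2 adjusted p = 0.0012). Dropping HDAC8 replicate 3 gave -7.94, and dropping HDAC8 replicate 1 gave -5.36. IFI35 fell from 303, 425 and 411 to 91.5, 95.2 and 54.4, a change of -2.24 (SE 0.42, DESeq2 adjusted p = 2.80e-06). USP18, which removes ISG15 from proteins, fell by 1.84 on the log2 scale (DESeq2 adjusted p = 9.79e-04). IFITM3 fell by 1.14 (DESeq2 adjusted p = 2.03e-05) and IFITM1 by 2.49 (DESeq2 adjusted p = 0.00449, or 0.112 without EV replicate 3, and a change of -3.07 without HDAC8 replicate 3). LGALS3BP and IFI6 were lower by 0.61 each on the log2 scale, close to the minimum. The call of LGALS3BP was lost when EV replicate 2 (-0.42) or HDAC8 replicate 2 (-0.57) was dropped. That of IFI6 was lost when any 1 EV library or HDAC8 replicate 1 was dropped (-0.66 to -0.43).

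The change among targets was uneven. ISG15 had 104 ± 13.9 normalized counts in EV and 93.6 ± 7.76 in HDAC8 (SD, n = 3), with overlapping groups. IFIT1 and MX1 likewise overlapped, and IFITM2 had a log2 fold change of 1.01 that was not called (DESeq2 adjusted p = 0.0614). IFIT2 (-1.95), SAMD9L (-0.76) and SAMD9 (-0.69) were not called either, and were lower with groups that did not overlap. Of the 26 fitted targets, 10 were lower and 1 higher without overlap (42.3%, against 24% of all genes fitted). The chemokine genes CXCL10 and CCL5 had no count in any library. Of the 11 called lower genes with a promoter window, 6 held the interferon core, namely BST2, IFITM1, IFITM3, OAS3, LGALS3BP and IFI6. All 6 are genes known to be induced by interferon, the targets that were not called were not searched, and nothing about the calls is read from this count.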

How the data were processed

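RNA from WM164 cells with an empty vector (3 libraries) or an HDAC8 vector (3 libraries) was sequenced in paired ends. The authors trimmed reads with Trimmomatic, aligned them with STAR and deposited 1 table of expected counts per gene made with RSEM, which divides reads shared by several genes. The genome build is not given in the sources used here, so gene spans and overlaps are those of GENCODE 44 (GRCh38), matched by gene identifier. Here the expected counts were rounded to whole numbers, and genes with a total of at least 10 counts were fitted with the Wald test of DESeq2 1.42.0 (R 4.3.3). The thresholds, adjusted p under 0.05 and 0.58 on the log2 scale, follow the methods of the study. A figure legend of the study gives its RNA-seq threshold as p under 0.05 with no correction for multiple testing, so its calls may differ. Intervals are 95% intervals from the standard error, and counting limits cover counting error only. The scripts were tested on simulated data. The 10 genes and all lists were chosen with earlier results of these data known. Genes named from the lists were those called with a mean of at least 50 normalized counts and groups that do not overlap, plus STING, RIG-I, IKBKE, IRF7 and IFNB1. Other genes that were not called were named after their values were seen. Alternatives were edgeR 4.0.16 (quasi-likelihood), limma-voom (limma 3.58.1), other size factors and filters, a replicate block, and leaving out each library.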

Additional observations from a re-analysis of the deposited data

How the results depend on the processing

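Under 14 alternatives (edgeR, limma-voom, total-count and upper-quartile size factors, no filter, at least 10 counts in every library, no mitochondrial genes, the replicate block and 6 fits without 1 library), all but 2 of 125 values of the 10 genes kept their direction and their side of the thresholds. These 2 were of TREX1, whose log2 fold change ran from -0.435 to 0.252 when 1 library was left out. Of 385 values of the other named genes, 368 held, 16 lost the call and 1 turned, IKBKE, which ran from -0.303 to 0.013 when 1 library was left out. Lost calls were those of IFITM1, SAMHD1, SKIV2L, LGALS3BP and IFI6, the last 2 also with total-count size factors (-0.565 and -0.572) and SKIV2L also with limma-voom (adjusted p = 0.0624). CGAS could not be fitted where 10 counts in every library were required, which left 2 of the 10 genes called lower in place of 3. In the fits without 1 library, 1653 to 2485 genes were called in all. Same-numbered libraries did not deviate together (Pearson r of -0.027, -0.066 and 0.04 over 14451 genes), so the numbers were not taken as pairs. With the replicate block 2153 genes were called in all, 3 of the 10 genes and 15 pathway genes lower and 3 pathway genes higher, and SKIV2L lost its call (adjusted p = 0.0841). Depth limits what can be said of AIM2 and of genes near the floor of 3 counts.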
